A study of Homo sapiens with 3 samples.

Results

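Gene expression with sh490, a short hairpin RNA against YES1, was set against the control hairpin shGFP in NCI-H209, a human cell line from small cell lung cancer, with 1 library of polyadenylated RNA for each hairpin. Genes entered by 1 rule, a mean CPM (read counts scaled to a common library total) of at least 5 over these 2 libraries after TMM scaling, a trimmed-mean correction of library size; 11607 of the 60609 listed genes met it. Per the labels, each hairpin sat in the lentiviral Tet-pLKO-puro vector and was induced with doxycycline at 1 µg/mL every 2 days; the labels give the same protocol for the control library. The control hairpin is directed at GFP, which human cells do not have. A second YES1 hairpin, sh1362, has the same protocol, and its values are given beside those of sh490 only for orientation, because both share the same shGFP library. The labels name no clone, and neither the hairpin sequences nor the length of induction before harvest is given in the sources used here.

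YES1 is a Src-family tyrosine kinase. Kinases of this family sit at the inner face of the plasma membrane, where they pass signals from integrins and growth factor receptors to the ERK, STAT3 and YAP pathways; CSK holds them inactive by phosphorylating their tail, and phosphatases such as PTPRA and PTPN1 take that phosphate off. Small cell lung cancer is a neuroendocrine tumour whose cells make secretory granules, peptide hormones and the proteins that load and cut them. The series title places the hairpins in work on dasatinib, a drug that inhibits Src-family and ABL kinases.

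With 1 library per hairpin no replicate test can be made. Each difference is therefore given as the ratio of normalised CPM, sh490 over shGFP, usually as its log2 (a log2 fold of 1 is a 2-fold higher level, -1 a 2-fold lower one), with an exact 95% interval for the ratio of 2 read counts. That interval covers counting error only. The reads carry no molecular identifiers and may repeat a molecule, so it can be too narrow even for counting error, here and wherever it is used below. A difference between cultures of the same kind was not measured, so no value below has a replicate check. A gene is called here when it lay at least 2-fold apart.

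The libraries held 7791747 counts for sh490 and 4899006 for shGFP, with 22954 and 21403 genes detected and 5.50% and 5.47% of counts from the mitochondrial genome. All 10 neuroendocrine markers of the line were above the filter in both libraries and none was called: their log2 folds ran from -0.60 (CHGB, a granule protein) to 0.89 (INSM1, a neuroendocrine transcription factor). The control stood apart in red cell transcripts and, at low counts, in leukocyte transcripts. Globins summed to 728.4 CPM in shGFP and 19.0 in sh490 (20.4 in sh1362), while the red cell markers other than globins summed to 98.7 and 111.3 CPM, nearly all of it from BPGM, SELENBP1 and SLC25A37. Of the markers with few counts, ALAS2, the first enzyme of haem synthesis in red cells, had 13 counts in shGFP and 1 in sh490, GYPC 6 and 0, and SLC4A1 2 and 0, in the direction of the globins. Of the list's 23 genes 8, AHSP and GATA1 among them, had no count in either library. The 25 leukocyte markers summed to 58.6 CPM in shGFP and 39.4 in sh490, and most of that came from CORO1A (80 counts in shGFP, 121 in sh490) and LCP1 (134 and 169). The other 23 summed to 14.6 CPM in shGFP (71 counts), 2.42 in sh490 (19 counts) and 4.49 in sh1362, and 18 of the 25 were at 0 in sh490 against 10 in shGFP. Among them S100A9, of neutrophils and monocytes, had 20 counts in shGFP and 1 in sh490, CSF3R 8 and 2, FCN1 7 and 0, SRGN 6 and 0, S100A8 5 and 0, MNDA 5 and 0, the B cell gene MS4A1 4 and 0 and PTPRC, which defines leukocytes, 2 and 0; CD14 had 6 and 14. No count of CD3D, CD3E or CD2 was found in either library. The 15 fibroblast and endothelial markers summed to 30.6 and 26.6 CPM. In bulk RNA, fewer cells of a type and less RNA per cell cannot be told apart. The only control library cannot be left out. Where its globin and leukocyte transcripts came from, and what part they take in the results below, was not tested.

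The level of YES1 was far lower with sh490. YES1 (minus strand of chromosome 18, 721588 to 812546 in GRCh38, ENSG00000176105.14) had 1465 counts in shGFP and 163 in sh490, or 301 and 20.8 CPM. This is 6.89% of the control level (5.82% to 8.10%), or 14.5 times lower. With sh1362 it had 216 counts and 9.81% of the control (8.47% to 11.3%). Set directly against each other, sh490 left 70.2% of the YES1 level that sh1362 left, with an interval of 56.9% to 86.4%, so sh490 had the lower level beyond counting error. A hairpin acts on the transcript, and the protein was not measured here.

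No other member of the Src family or its regulators was called. Of 16 genes on that list 9 were measured, and YES1 was the only one 2-fold apart, against 1.43% of all measured genes called lower and 1.47% called higher. FRK, a Src-related kinase, came nearest, with 1115 counts (142 CPM) in sh490 and 1101 (226 CPM) in shGFP (log2 fold -0.67, interval -0.79 to -0.55). LYN had 545 counts (69.4 CPM) in sh490 and 435 (89.5 CPM) in shGFP, with a log2 fold of -0.37 (-0.55 to -0.18). Both were therefore lower beyond counting error and by less than 2-fold. SRC itself, with 198 and 145 counts, and FYN, with 345 and 209, had intervals that include equality (-0.56 to 0.08 and -0.22 to 0.29 on the log2 scale). CSK had a log2 fold of 0.37 (-0.01 to 0.75) and its membrane anchor PAG1 one of -0.50 (-1.08 to 0.07). Of the activating phosphatases, PTPRA was at 0.28 (0.11 to 0.45) and PTPN1 at 0.12 (-0.09 to 0.33). Of the 7 measured genes within 1 Mb of YES1, 1 was called, the unnamed gene ENSG00000265179 (30 and 39 counts, log2 fold -1.07), and their median was -0.48. Nearest to it in position, ENOSF1 was at 0.09 and TYMS, which makes thymidylate for DNA synthesis, at -0.62.

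Across all measured genes the difference was narrow and nearly balanced. The median log2 fold was 0.02, and the 5th and 95th percentiles were -0.64 and 0.69. At least 2-fold higher with sh490 were 171 genes (1.47%) and at least 2-fold lower were 166 (1.43%). All 337 had counting intervals that leave out equality. Every measured gene had at least 57 counts over the 2 libraries, enough for any 2-fold ratio to do so, so this is no further check. The interval lay wholly past 2-fold for 32 higher genes (0.276%) and 48 lower ones (0.414%). At least 4-fold higher were 8 genes (0.0689%) and at least 4-fold lower 12 (0.103%), and at the looser bound of 1.5-fold there were 889 (7.66%) and 713 (6.14%). Calls thinned out with level: of 1573 genes between 5 and 10 mean CPM, 4.07% were called higher and 3.50% lower, and of 2530 genes at 100 CPM or more, 0.435% and 0.711%. Among the 10942 protein-coding genes 161 were higher and 143 lower, and among 643 genes of other annotated types 10 and 20. The chromosome medians ran from -0.05 on chromosomes 4 and 8 to 0.11 on chromosome 19, which held 18 higher and 4 lower genes of 741. The log2 fold had a Spearman correlation of -0.01 with exon length and -0.07 with mean CPM over the 11607 genes, which share the same libraries.

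**Figure D1:**
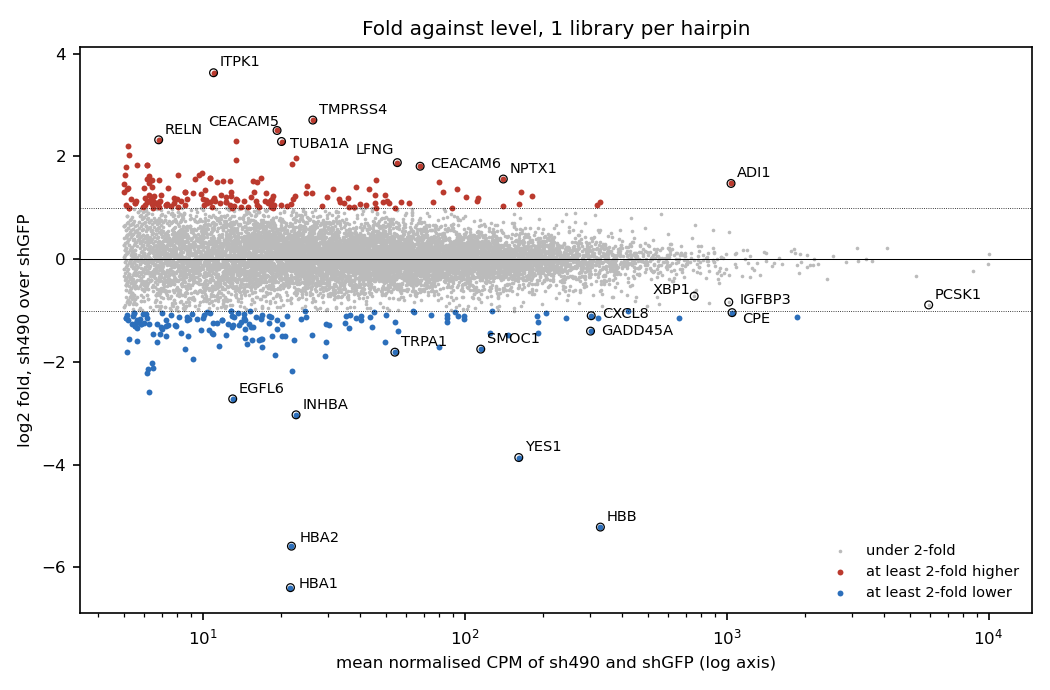
Log2 fold of sh490 over shGFP (vertical axis) against the mean normalised CPM of both libraries (horizontal log axis) for the 11607 measured genes, 1 point a gene, with dotted lines at 2-fold. Most of the 171 higher and 166 lower genes lie at low levels, where counting error is widest; YES1, HBB, ADI1 and NPTX1 lie far from 0 at higher levels.

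ITPK1 stood farthest above the control. This gene (ENSG00000100605.17, chromosome 14, 92936914 to 93116320) encodes an inositol phosphate kinase at the entry to the higher inositol phosphates, and it had 160 counts (20.4 CPM) in sh490 and 8 (1.65 CPM) in shGFP, a level 12.4 times higher (6.13 to 29.2); sh1362 had 128 counts. It was the only one called of 37 measured genes of the inositol phosphate list, and of 15 other measured genes within 1 Mb of it 0 were called. TMPRSS4 (ENSG00000137648.18, chromosome 11, 118077012 to 118121890), a serine protease of the cell surface, had 359 counts (45.7 CPM) in sh490 and 34 (6.99 CPM) in shGFP, 6.54 times higher (4.59 to 9.59). With sh1362 TMPRSS4 had 73 counts, 9.94 CPM, much nearer the control. TUBA1A, an alpha tubulin of neurons, had 261 counts (33.2 CPM) in sh490 and 33 (6.79 CPM) in shGFP and was 4.90 times higher (3.40 to 7.26); reads that fit several alpha tubulin genes were left out of the counts, so its level is uncertain. The related genes TUBA1B and TUBA1C were at log2 folds of -0.07 and 0.28.

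Other genes far above the control were secreted or membrane proteins and enzymes. RELN, a secreted guidance protein of neurons, had 89 counts (11.3 CPM) in sh490 and 11 (2.26 CPM) in shGFP. NPTX1 (ENSG00000171246.6, chromosome 17, 80466834 to 80477843), a secreted pentraxin of excitatory synapses, had 1649 counts (210.0 CPM) in sh490 and 346 (71.2 CPM) in shGFP and was 2.95 times higher (2.63 to 3.32). Abundant transcripts were among them too. ADI1 (ENSG00000182551.14, chromosome 2, 3497366 to 3519531), an enzyme of methionine salvage, had 12015 counts (1530.2 CPM) in sh490 and 2675 (550.2 CPM) in shGFP, 2.78 times higher with the narrow interval 2.67 to 2.90, and sh1362 lay between at 952 CPM. LAPTM4A, a membrane protein of lysosomes, had 932 counts (119 CPM) in sh490 and 203 (41.8 CPM) in shGFP, and BLOC1S6, a subunit of the BLOC-1 complex of lysosome-related organelles, 538 counts (68.5 CPM) in sh490 and 114 (23.4 CPM) in shGFP. These last genes were as high or higher with sh1362, at 136 and 91.4 CPM. PPP1R14C, an inhibitor of protein phosphatase 1, had only 67 and 9 counts and a log2 fold of 2.20 (1.19 to 3.39).

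A few of the highest genes had a called gene next to them in the order of measured genes. CCDC154, on chromosome 16, had 270 counts (34.4 CPM) in sh490 and 46 (9.46 CPM) in shGFP, and the unnamed non-coding gene ENSG00000279930, which overlaps it, had 175 and 22 counts; reads were added over both strands, so the pair cannot be told apart. Of the 50 other measured genes within 1 Mb of CCDC154, 2 were called higher, ENSG00000279930 among them, and 0 lower. In all, 19 pairs of neighbouring measured genes were called the same way, 7 higher and 12 lower, and 4 of these pairs overlap. Neighbouring means next in order among the 11607 measured genes, of which 1.47% were called higher and 1.43% lower. Such genes can lie far apart: LAPTM4A and SDC1 were separated by 149 kb, and LMO3 and PIK3C2G by 1637 kb. How many pairs would arise from those shares alone was not worked out. Higher pairs included LAPTM4A with SDC1, a cell surface proteoglycan (504 and 131 counts), and GPR107 with NCS1, a neuronal calcium sensor (182 and 39). Lower pairs included ABCA1, the cholesterol exporter (115 and 217 counts), with NIPSNAP3B, and NR3C1, the glucocorticoid receptor (892 and 1294 counts), with ARHGAP26.

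Below the control, the globins, listed with the red cell transcripts above, and YES1 came first. HBB had 136 counts in sh490 and 3124 in shGFP, HBA1 4 and 208, and HBA2 7 and 208; the alpha globin genes are near-identical copies, so their separate counts are uncertain. INHBA (ENSG00000122641.11, chromosome 7, 41667168 to 41705834), the beta A subunit that forms activin A, had 39 counts (4.97 CPM) in sh490 and 197 (40.5 CPM) in shGFP, 8.16 times lower (5.76 to 11.8), and sh1362 lay between at 9.80 CPM. EGFL6 (ENSG00000198759.12, chromosome X, 13569601 to 13633575), a secreted matrix protein with EGF-like repeats, had 27 counts (3.44 CPM) in sh490 and 110 (22.6 CPM) in shGFP and was 6.58 times lower (4.29 to 10.4). SMOC1, a secreted calcium-binding matrix protein, had 415 counts (52.9 CPM) in sh490 and 864 (178 CPM) in shGFP, 3.36 times lower. All 3 are secreted proteins.

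The remaining lowest genes included an ion channel, receptors and enzymes. TRPA1, the channel that senses irritants, had 189 counts (24.1 CPM) in sh490 and 410 (84.3 CPM) in shGFP, and sh1362 had the same level, 24.1 CPM; it was the only one called of 10 measured TRP channels. PTGER4, a receptor for prostaglandin E2, had 18 and 49 counts, and AKAP12, a scaffold for protein kinase A that is also a Src substrate, 17 and 49. GP2, a membrane protein of secretory granules in the pancreas, had 294 counts (37.4 CPM) in sh490 and 592 (122 CPM) in shGFP. B3GALT2, a galactosyltransferase, had 63 counts (8.02 CPM) in sh490 and 175 (36.0 CPM) in shGFP, and MORC1, a gene of the male germ line, 99 counts (12.6 CPM) in sh490 and 225 (46.3 CPM) in shGFP. For these last 2 genes sh1362 was nearer the control, at 26.8 and 33.6 CPM. C2CD4A had 193 and 363 counts, a log2 fold of -1.60.

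Non-coding genes reached smaller differences. Besides ENSG00000279930, the highest were ENSG00000226816 (log2 fold 1.84), ENSG00000251095 (1.49) and LINC00342 (1.24, from 248 and 65 counts). The lowest were ENSG00000254645 (-1.70), the pseudogene FKBP9P1 (-1.49), DICER1-AS1 (-1.49) and ENSG00000273066 (-1.59). DICER1-AS1 is antisense to DICER1, and its reads cannot be separated by strand.

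**Figure D2:**
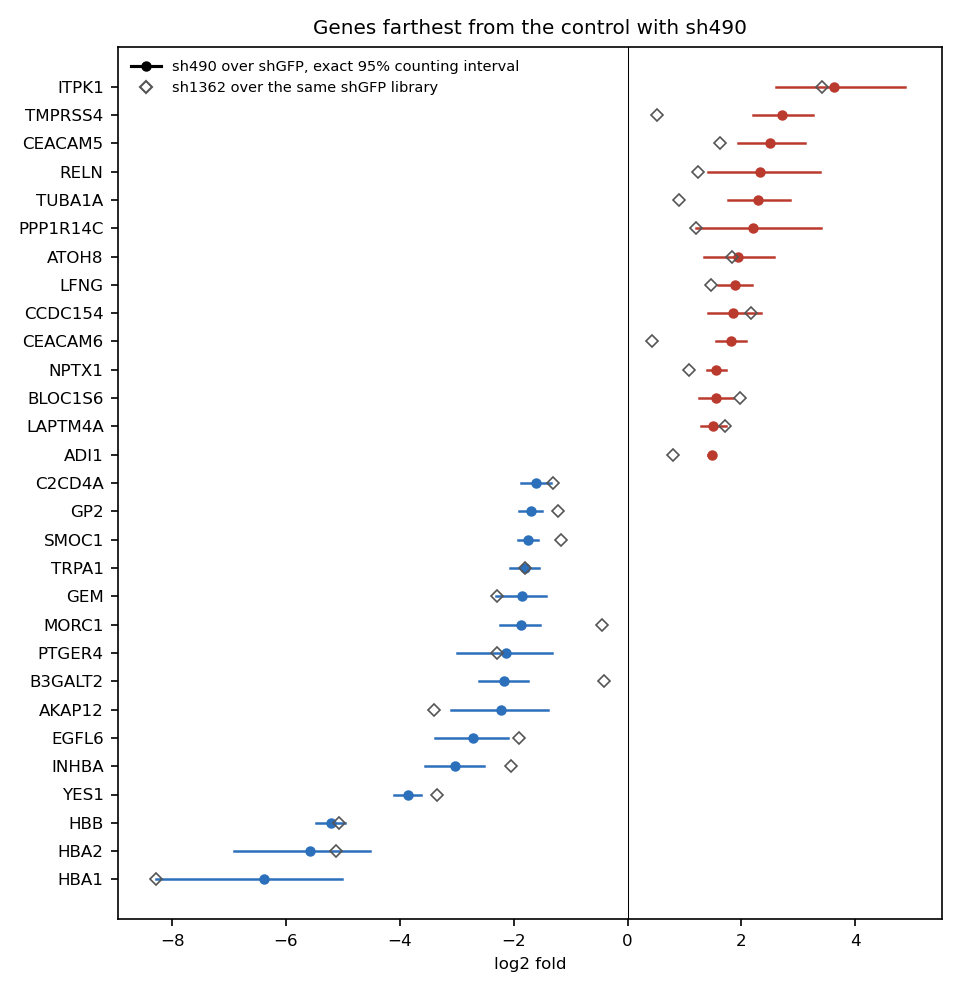
Log2 fold of sh490 over shGFP for the highest and lowest protein-coding genes named in the text, ranked by the bound of the counting interval nearest equality; filled points are sh490 with exact 95% counting intervals and open diamonds sh1362 over the same shGFP library. ITPK1 is highest at 3.63, YES1 is at -3.86 and the globins lie lowest, and TMPRSS4, CEACAM6, B3GALT2 and MORC1 are the genes whose diamonds lie nearest 0.

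Gene groups were read from 61 lists with 1998 entries and 1914 different genes, of which 1365 were measured. For each list the count of called members and the median log2 fold stand beside the values over all measured genes, 1.47% higher, 1.43% lower and a median of 0.02. Below the 2-fold call, 22.4% of all measured genes had a counting interval wholly above equality and 20.3% one wholly below. Of the 59 lists with 5 or more measured members, 23 held no called gene. No set test was made.

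Chemokines that draw neutrophils were lower. Of 32 chemokine and cytokine genes 7 were measured: 3 were called lower, 2 higher, and the median was -0.77. CXCL8 (ENSG00000169429.11, chromosome 4, 73740541 to 73743716) had 1521 counts (194 CPM) in sh490 and 2018 (415 CPM) in shGFP, 2.14 times lower (log2 fold -1.10); sh1362 had 113 CPM. CXCL6 had 51 counts (6.50 CPM) in sh490 and 88 (18.1 CPM) in shGFP, a log2 fold of -1.48. CXCL1 had 33 counts (4.20 CPM) in sh490 and 50 (10.3 CPM) in shGFP, a log2 fold of -1.29. These 3 genes encode ligands of the receptor CXCR2 and lie together on chromosome 4. Of the other members 2 were called higher: CCL28, a chemokine of mucosal epithelium (83 and 24 counts, 1.10), and TGFB1 (115 and 33, 1.11). CXCL16 was at 0.07. IL15 was lower too, under the call at -0.77, with an interval wholly below equality. For TGFB1, sh1362 was on the other side of the control, at -0.54.

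The 3 chemokines share a promoter feature with TNFAIP3, the other called gene of the NF-kB list. NF-kB factors bind sites of the type GGNNNTTCC, and this word was searched on both strands in the 250 bases before each start in RefSeq (GRCh38.p14), whose starts can differ from the gene bounds of the count tables; it was found in 17.1% of 35116 promoters and in 20.2% of the promoters of measured protein-coding genes. Of the 24 measured genes on the chemokine and NF-kB lists 20 had an entry, 9 of these held the word, and all 4 called lower did. The word was chosen after the values had been seen, and the NF-kB list holds targets of these factors, so this is a description and no test. The 120 bases before the start of each are shown on the plus strand, with matches on either strand in capitals; a match describes the letters and is not a measured site of binding.
CXCL8 (chr4:73740449-73740568): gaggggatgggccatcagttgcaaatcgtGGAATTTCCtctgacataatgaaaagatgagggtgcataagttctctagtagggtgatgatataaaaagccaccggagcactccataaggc
CXCL6 (chr4:73836558-73836677): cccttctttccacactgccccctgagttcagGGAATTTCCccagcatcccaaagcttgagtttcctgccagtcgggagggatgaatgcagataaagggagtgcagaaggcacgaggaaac
CXCL1 (chr4:73869273-73869392): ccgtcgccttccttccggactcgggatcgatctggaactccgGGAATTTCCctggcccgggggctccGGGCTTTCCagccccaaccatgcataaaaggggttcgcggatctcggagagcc
TNFAIP3 (chr6:137867139-137867258): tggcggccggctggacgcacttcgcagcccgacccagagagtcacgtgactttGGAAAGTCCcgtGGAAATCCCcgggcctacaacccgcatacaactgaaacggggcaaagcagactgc
The word stood 91 bases before the start in CXCL8 and 89 in CXCL6, and 2 matches stood in each of the other promoters, the first at 78 bases in CXCL1 and at 67 in TNFAIP3.

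The wider NF-kB list differed little. Of its 27 genes 19 were measured, 0 were higher and 3 lower (CXCL8, CXCL1 and TNFAIP3), and the median was -0.14. TNFAIP3, the deubiquitinase A20 that shuts NF-kB signalling off, had 66 counts (8.41 CPM) in sh490 and 95 (19.5 CPM) in shGFP, a log2 fold of -1.22 (-1.69 to -0.75). NFKBIA, the inhibitor that NF-kB induces most directly, was at 0.24 (-0.23 to 0.73), and NFKB1 at -0.09. TNIP2, a partner of A20, was higher beyond counting error, at 0.70 (0.39 to 1.02). The median with sh1362 was -0.68.

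Genes of the ERK feedback list were mostly a little lower. ERK activity induces phosphatases and Sprouty proteins that damp it. The list also holds genes of other kinds, EPHA2 and HBEGF among them. Of its 25 genes 20 were measured: 2 were called lower, 1 higher, 16 had log2 folds below 0, and 11 had intervals wholly below equality. The median was -0.39. DUSP5, a nuclear ERK phosphatase, had 90 counts (11.5 CPM) in sh490 and 122 (25.1 CPM) in shGFP, 2.19 times lower. DUSP6, its cytoplasmic relative, had 574 counts (73.1 CPM) in sh490 and 593 (122 CPM) in shGFP, at -0.74 (-0.91 to -0.57). EPHA2, an ephrin receptor, had 25 counts (3.18 CPM) in sh490 and 39 (8.02 CPM) in shGFP, a log2 fold of -1.33. Lower beyond counting error and under 2-fold were also the Sprouty genes SPRY4 (-0.74) and SPRY1 (-0.62) and the ETS factor ETV4 (-0.59). CCND1, the cyclin that starts G1, had 522 counts (66.5 CPM) in sh490 and 601 (124 CPM) in shGFP, at -0.89. HBEGF, a ligand of the EGF receptor, was the called exception on the higher side, with 56 and 14 counts.

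The immediate early and YAP lists had medians below the control. Of 30 immediate early genes, those switched on within minutes of a stimulus, 21 were measured, 0 were higher and 3 lower, 14 lay below 0 and 7 above, 10 had intervals wholly below equality and 4 wholly above, and the median was -0.27. GEM, a small GTPase, had 64 counts (8.15 CPM) in sh490 and 144 (29.6 CPM) in shGFP, 3.63 times lower. MAFF, a small Maf factor, had 43 counts (5.48 CPM) in sh490 and 86 (17.7 CPM) in shGFP, 3.23 times lower. NR4A1, an orphan nuclear receptor, had 70 counts (8.91 CPM) in sh490 and 108 (22.2 CPM) in shGFP, 2.49 times lower. The AP-1 genes did not share so large a difference: ATF3 was at -0.65, JUN at -0.28 and FOS, with 54 and 32 counts, at 0.06.

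Of 28 genes of the YAP and TEAD pathway, which reads out cell contact and tension, 20 were measured, 0 were higher and 1 lower. The median was -0.44, and 12 had intervals wholly below equality and 3 wholly above. GADD45A, a stress sensor, had 1306 counts (166 CPM) in sh490 and 2133 (439 CPM) in shGFP, 2.64 times lower (2.46 to 2.83), and sh1362 was at a similar level, 162 CPM. IGFBP3, a secreted binder of insulin-like growth factors, had 5755 counts (733 CPM) in sh490 and 6352 (1307 CPM) in shGFP, at -0.83. TGFB2, a TGF-beta ligand, had 295 counts (37.6 CPM) in sh490 and 361 (74.3 CPM) in shGFP, just under the 2-fold call at -0.98. PTPN14, a phosphatase that binds YAP, was at -0.70, the coactivator WWTR1 (TAZ) at -0.91 and YAP1 itself, with 65 and 64 counts, at -0.67. TEAD1, a DNA-binding partner of both, was at -0.07 (-0.19 to 0.04).

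Secretory cargo and its route through the cell were lower with sh490 as a broad, shallow difference. Of 38 granule and synaptic release genes 31 were measured, 0 were higher and 3 lower, 23 lay below 0, 15 had intervals wholly below equality and 4 wholly above, and the median was -0.17. With sh1362 the list's median was 0.30, on the other side of the control. CPE, the carboxypeptidase that trims prohormones, had 5397 counts (687 CPM) in sh490 and 6867 (1413 CPM) in shGFP, 2.06 times lower, while sh1362 lay above the control at 1621 CPM. SLC18A2, the transporter that loads monoamines into granules, had 109 counts (13.9 CPM) in sh490 and 188 (38.7 CPM) in shGFP, 2.79 times lower. PCSK1, the convertase that cuts prohormones, had 32536 counts (4144 CPM) in sh490 and 37310 (7675 CPM) in shGFP, at -0.89 (-0.91 to -0.87). For these 2 processing enzymes counting error was small beside the difference, and with sh1362 they were at log2 folds of 0.21 and -0.07.

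Among 38 neuropeptide and hormone genes 13 were measured, 0 were higher and 1 lower, 10 lay below 0, and the median was -0.33 (-0.26 with sh1362). SCG2, a granin that is cut to secretoneurin, had 2187 counts (279 CPM) in sh490 and 2727 (561 CPM) in shGFP, 2.01 times lower; scaled to library totals alone its log2 fold was -0.99, which ends the only call of this list. CALCB, a calcitonin gene-related peptide, was at -0.81, PTHLH, the parathyroid hormone-related protein, at -0.76, and PENK, the enkephalin precursor, at -0.69. CALCA, the sister gene of CALCB, had 36650 counts (4668 CPM) in sh490 and 28522 (5867 CPM) in shGFP, a smaller difference of -0.33. Of other granule and vesicle proteins, CHGA was at -0.14 (-0.46 to 0.18), SYP at -0.19, SCG3 at -0.25 and CHGB at -0.60 (-0.78 to -0.43).

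Genes of the unfolded protein response, which enlarges the folding capacity of the endoplasmic reticulum (ER), lay lower together without a call. All 22 were measured, 0 were 2-fold apart, 19 lay below 0, 16 had intervals wholly below equality, and the median was -0.29. XBP1, its transcription factor, had 4465 counts (569 CPM) in sh490 and 4552 (936 CPM) in shGFP, at -0.72 (-0.78 to -0.66). ERN1, the sensor IRE1 that splices XBP1, had 235 counts (29.9 CPM) in sh490 and 235 (48.3 CPM) in shGFP, at -0.69. EDEM2 and OSTC, which act in disposal and glycosylation of ER proteins, were at -0.66 and -0.67, and the chaperones HSPA5 and HSP90B1 at -0.30 and -0.39. With sh1362 the list's median was 0.23, on the other side of the control, with ERN1 at 0.45 and EDEM2 at 0.51. A list of 52 ER to Golgi transport genes, written after these values had been seen, had 51 measured, 0 higher and 2 lower, 41 below 0 and a median of -0.17. Its median with sh1362 was 0.02. The called pair were SEC23A, a coat protein of the vesicles that leave the ER (241 counts (30.7 CPM) in sh490 and 392 (80.6 CPM) in shGFP), and KDELR3, a receptor that returns chaperones to it (61 counts (7.77 CPM) in sh490 and 113 (23.2 CPM) in shGFP).

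**Figure D3:**
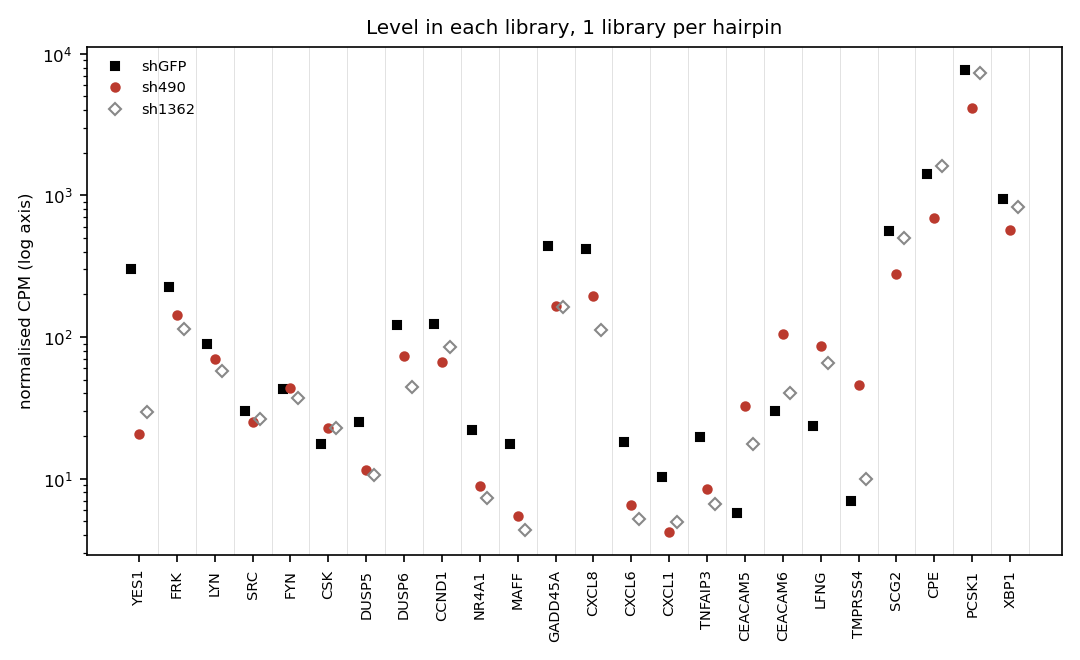
Normalised CPM (vertical log axis) of 24 genes in each library, 1 point a library: shGFP as squares, sh490 as circles and sh1362 as diamonds. In sh490 YES1, the chemokines, the granule genes SCG2, CPE and PCSK1 and XBP1 lie below shGFP, and CEACAM5, CEACAM6, LFNG and TMPRSS4 lie above it; for CPE the sh1362 level is above the control.

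DNA replication genes showed the same kind of shallow difference. All 45 S phase genes were measured, 0 were called, 37 lay below 0, 29 had intervals wholly below equality and 1 wholly above, and the median was -0.28. CDC6, which loads the replicative helicase, had 326 counts (41.5 CPM) in sh490 and 346 (71.2 CPM) in shGFP, at -0.78. MCM10, a helicase cofactor, had 525 counts (66.9 CPM) in sh490 and 540 (111 CPM) in shGFP, at -0.73. POLD3, a subunit of DNA polymerase delta, had 719 counts (91.6 CPM) in sh490 and 738 (152 CPM) in shGFP, at -0.73, and RFC4, a clamp loader subunit, was at -0.63. The helicase subunits were not uniform, from MCM7 at -0.51 to MCM2 at 0.20. Of 47 DNA damage genes 45 were measured and 37 lay below 0, with a median of -0.23; the 1 called was EXO1, an exonuclease of mismatch and break repair, with 485 counts (61.8 CPM) in sh490 and 671 (138 CPM) in shGFP, and the checkpoint kinase CHEK1 was close to the call at -0.95. The 48 measured of 49 G2/M genes stayed nearer to the control, with a median of -0.06, 0 called, and the proliferation marker MKI67 at -0.11. With sh1362 the medians of these 3 lists were -0.93, -0.74 and -0.93.

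**Figure D4:**
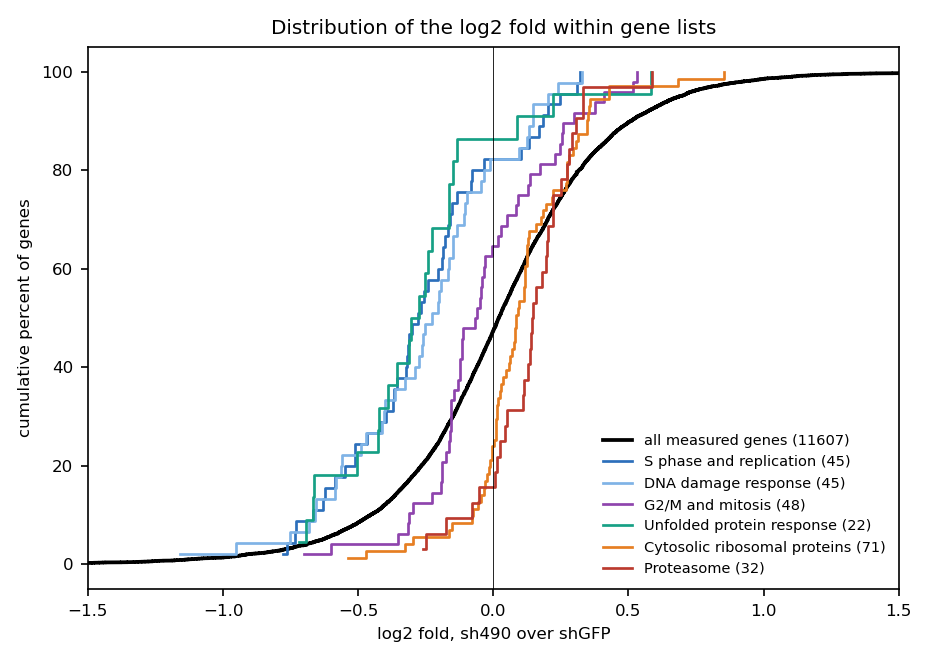
Cumulative percent of genes (vertical axis) by log2 fold of sh490 over shGFP (horizontal axis) for all 11607 measured genes and 6 lists, cropped at 1.5 either way. The curves of the S phase, DNA damage and unfolded protein response lists (medians -0.28, -0.23 and -0.29) lie left of the curve of all genes, the G2/M list (-0.06) close to it, and the ribosomal protein and proteasome lists (0.08 and 0.14) to its right.

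Basic metabolism and protein turnover held no called gene. The 71 measured cytosolic ribosomal proteins had a median of 0.08 with 54 above 0, and the 32 measured proteasome genes one of 0.14 with 27 above 0; 30 and 18 of them had intervals wholly above equality and 5 and 2 wholly below. The 50 nuclear oxidative phosphorylation genes had a median of -0.11, ran from -0.92 to 0.37, and had 25 intervals wholly below equality and 4 wholly above. The 35 measured glycolysis and hypoxia genes had a median of -0.14 with 18 intervals below and 3 above, a shallow lower difference like that of the granule list. The 13 mitochondrially encoded genes had a median of 0.00. Among immune recognition genes, the 16 measured MHC class I, 10 MHC class II and 15 T and NK ligand genes had medians of 0.01, -0.00 and -0.15 and 0 calls. B2M, the light chain of class I molecules, had 5568 counts (709 CPM) in sh490 and 3583 (737 CPM) in shGFP, close to the control, while sh1362 had 616 CPM.

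Interferon response genes lay slightly higher. Of 39 genes 17 were measured, 1 was higher and 0 lower, 14 lay above 0, 7 had intervals wholly above equality and 0 wholly below, and the median was 0.30. OAS1, a sensor of double-stranded RNA, had 72 counts (9.17 CPM) in sh490 and 19 (3.91 CPM) in shGFP, 2.35 times higher (1.40 to 4.12). SAMD9L, a translation repressor, had 269 counts (34.3 CPM) in sh490 and 88 (18.1 CPM) in shGFP, at 0.92. STAT2, the interferon signal carrier, had 690 counts (87.9 CPM) in sh490 and 268 (55.1 CPM) in shGFP, at 0.67, and SAMD9 was at 0.71. Of genes that interferon induces strongly, ISG15 was at 0.03 (-0.70 to 0.80) and IFIT1 at -0.09 (-0.82 to 0.67), each from fewer than 50 counts. With sh1362, SAMD9L was at -0.69 and the list's median was 0.08.

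Surface antigens held 3 of the called higher genes. Of 27 genes 19 were measured, 3 were higher and 0 lower, 14 lay above 0, and the median was 0.30. CEACAM5 (ENSG00000105388.15, chromosome 19, 41708585 to 41729798), the carcinoembryonic antigen, had 257 counts (32.7 CPM) in sh490 and 28 (5.76 CPM) in shGFP, 5.68 times higher (3.84 to 8.72). CEACAM6 (ENSG00000086548.9, chromosome 19, 41750977 to 41772211), its neighbour, had 827 counts (105 CPM) in sh490 and 146 (30.0 CPM) in shGFP, 3.51 times higher (2.94 to 4.21). KIT, the stem cell factor receptor, had 211 counts (26.9 CPM) in sh490 and 63 (13.0 CPM) in shGFP, 2.07 times higher, and was below the control with sh1362, at -0.73. CD24, a mucin-like surface protein, had 2797 counts (356 CPM) in sh490 and 1064 (219 CPM) in shGFP, under 2-fold at 0.70. The antigens for which small cell lung cancer is best known stayed close, with DLL3 at 0.21 (-0.09 to 0.51) and NCAM1 at -0.09. CD276 was at 0.80 and GPC3 at 0.79.

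CEACAM5 and CEACAM6 lie 21.2 kb apart on chromosome 19 and encode similar adhesion proteins anchored in the membrane, and reads that fit both were left out. CEACAM1, of the same family, was at 0.87, and of 26 other measured genes within 1 Mb 3 were called higher, CEACAM6 and TGFB1 among them. The 120 bases before their RefSeq starts are shown because both genes were called higher; aligned, they had 100 identical bases, 18 mismatches and 4 gap positions, 82.0% identity. Capitals mark CACGTG, an E-box that reads the same on both strands and is found in the 250 bases before the start in 6.34% of all promoters and 9.39% of those of measured protein-coding genes.
CEACAM5 (chr19:41708506-41708625): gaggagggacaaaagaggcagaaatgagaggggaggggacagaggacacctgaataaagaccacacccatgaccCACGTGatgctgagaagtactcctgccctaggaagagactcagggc
CEACAM6 (chr19:41755410-41755529): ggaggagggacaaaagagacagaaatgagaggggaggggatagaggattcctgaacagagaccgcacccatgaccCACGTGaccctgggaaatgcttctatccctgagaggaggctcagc
The word stood 46 bases before the start in CEACAM5 and 45 in CEACAM6.

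Secretory epithelial genes split. Of 31 genes 12 were measured, and beside the 2 CEACAM genes, which this list also holds, 2 were lower: AGR2, a disulphide isomerase of mucus cells, had 40 counts (5.09 CPM) in sh490 and 54 (11.1 CPM) in shGFP, and SPDEF, a factor of goblet cells, 38 counts (4.84 CPM) in sh490 and 50 (10.3 CPM) in shGFP. AGR2 was higher than the control with sh1362, at 30.2 CPM.

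Receptor tyrosine kinases differed in both directions. Of 51 genes 25 were measured, 2 were higher and 2 lower, and the median was 0.32. With sh1362 the list's median was -0.43, on the other side of the control. FGFR4, a receptor for FGF19, had 72 counts (9.17 CPM) in sh490 and 15 (3.09 CPM) in shGFP, 2.97 times higher. ROR1, a receptor for WNT5A, had 105 counts (13.4 CPM) in sh490 and 139 (28.6 CPM) in shGFP, 2.14 times lower. With KIT and EPHA2, given above, these are all 4. ERBB2 and EGFR were at -0.51 and -0.65, MET at 0.39 and RET at 0.30, none of them called.

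TGF-beta, activin and BMP genes held the deep difference of INHBA and 3 higher genes. Of 53 genes 36 were measured, and the median was 0.14. ID1, an inhibitor of bHLH factors that BMP signals induce, had 277 counts (35.3 CPM) in sh490 and 70 (14.4 CPM) in shGFP, 2.45 times higher. ATOH8, a bHLH factor, had 167 counts (21.3 CPM) in sh490 and 27 (5.55 CPM) in shGFP, 3.83 times higher. TGFB1 was the other. The ligand genes thus differed in direction, INHBA and TGFB2 lower and TGFB1 higher.

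In the Notch list 20 of 31 genes were measured, and 1 was called. LFNG (ENSG00000106003.13, chromosome 7, 2512529 to 2529177), the Fringe glycosyltransferase that changes which ligands a Notch receptor answers to, had 684 counts (87.1 CPM) in sh490 and 115 (23.7 CPM) in shGFP, 3.68 times higher (3.02 to 4.53). The Notch targets HES1 and NRARP were at 0.52 and 0.83, and the list's median was 0.26. In the hedgehog and retinoid list 6 of 26 were measured: HHIP, a decoy that binds hedgehog ligands, had 147 counts (18.7 CPM) in sh490 and 41 (8.43 CPM) in shGFP and was 2.22 times higher, SUFU, a brake on GLI factors, was at 0.70, RXRB at 0.23 and the retinal reductase DHRS3 at -0.53.

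Cell death genes lay slightly higher. Of 40 BCL2 family, caspase and death receptor genes 29 were measured, 2 were higher and 0 lower, 22 lay above 0, and the median was 0.26. The list had 12 intervals wholly above equality and 4 wholly below, and its median with sh1362 was 0.04. BIK, a BH3-only killer protein, had 197 counts (25.1 CPM) in sh490 and 41 (8.43 CPM) in shGFP, 2.97 times higher. CASP9, the initiator caspase of the mitochondrial route, had 241 counts (30.7 CPM) in sh490 and 66 (13.6 CPM) in shGFP, 2.26 times higher, and its activator APAF1 was under the call at 0.89. The inhibitors XIAP and BCL2 were at -0.75 and -0.39. Of the G1 and RB list, RB1, the retinoblastoma protein gene, was the only called member of 25 measured, with 813 counts (104 CPM) in sh490 and 231 (47.5 CPM) in shGFP.

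Matrix genes were mixed. Of 51 collagen, laminin and other matrix genes 26 were measured, 1 was higher and 3 lower, and the median was -0.07. TNR, tenascin-R, had 31 counts (3.95 CPM) in sh490 and 64 (13.2 CPM) in shGFP, and COL12A1, a fibril-associated collagen, 81 counts (10.3 CPM) in sh490 and 112 (23.0 CPM) in shGFP; with EGFL6 these are the lower genes. COL11A1, a fibrillar collagen, had 96 counts (12.2 CPM) in sh490 and 19 (3.91 CPM) in shGFP, 3.13 times higher. Of adhesion genes, NEDD9, a docking protein that Src phosphorylates, had 19 and 51 counts, a log2 fold of -2.12, and the integrin ITGB8 420 and 571, at -1.13; they were the only called genes of 26 measured.

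Genes of the non-neuroendocrine state showed no common direction. Of 25, 18 were measured, 2 were higher and 1, EPHA2, was lower, 9 lay above 0 and 9 below, and the median was -0.05. ANXA1, a phospholipid-binding annexin, had 188 counts (23.9 CPM) in sh490 and 41 (8.43 CPM) in shGFP, 2.84 times higher. S100A6, a calcium-binding protein, had 523 counts (66.6 CPM) in sh490 and 149 (30.6 CPM) in shGFP, 2.17 times higher. With sh1362 both were nearer the control, at 0.39 and 0.05. Among neuroendocrine transcription factors NEUROD4 was the only called gene of 23 measured, with 70 and 20 counts.

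Transmitter receptors were mixed too. Of 51 genes 20 were measured, 1 was higher and 2 lower. GRIN2C, an NMDA receptor subunit, had 115 counts (14.6 CPM) in sh490 and 23 (4.73 CPM) in shGFP. DRD2, the dopamine D2 receptor, had 46 counts (5.86 CPM) in sh490 and 77 (15.8 CPM) in shGFP. CHRNA3, the ganglionic nicotinic subunit, was just short of the call at -0.92. All of these rest on few counts, and their intervals span from 0.98 to 2.34 for GRIN2C and from -1.99 to -0.89 for DRD2.

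Small lists end the account. Of 14 metallothionein and zinc genes 5 were measured: the zinc importer SLC39A4 was higher (77 and 23 counts, 1.05), SLC39A10 and SLC39A14 lay under the call on the lower side (-0.80 and -0.54), and the zinc sensor MTF1 was at 0.10. Of 22 histone genes 10 were measured, 0 were called and 9 lay above 0, with H2AZ2 at 0.34, MACROH2A1 at 0.27 and H2AX at 0.62. In the lists not yet named, the called genes included SOCS2, a brake on cytokine receptors (76 and 132 counts), NKD1 and NKD2, Wnt antagonists that lay on opposite sides (1.35 and -1.26), the p53 targets TP53INP1 (1.10) and PLK2 (-1.33), the glycine transporter SLC6A9 (1.31), the epithelial factor OVOL2 (1.10) and the heat shock gene HSPA1A (1.00). HSPA1A has a near-identical copy, HSPA1B, which was at 0.50, so its level is uncertain, and with a prior count of 2 it fell under the call, at 0.98.

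**Figure D5:**
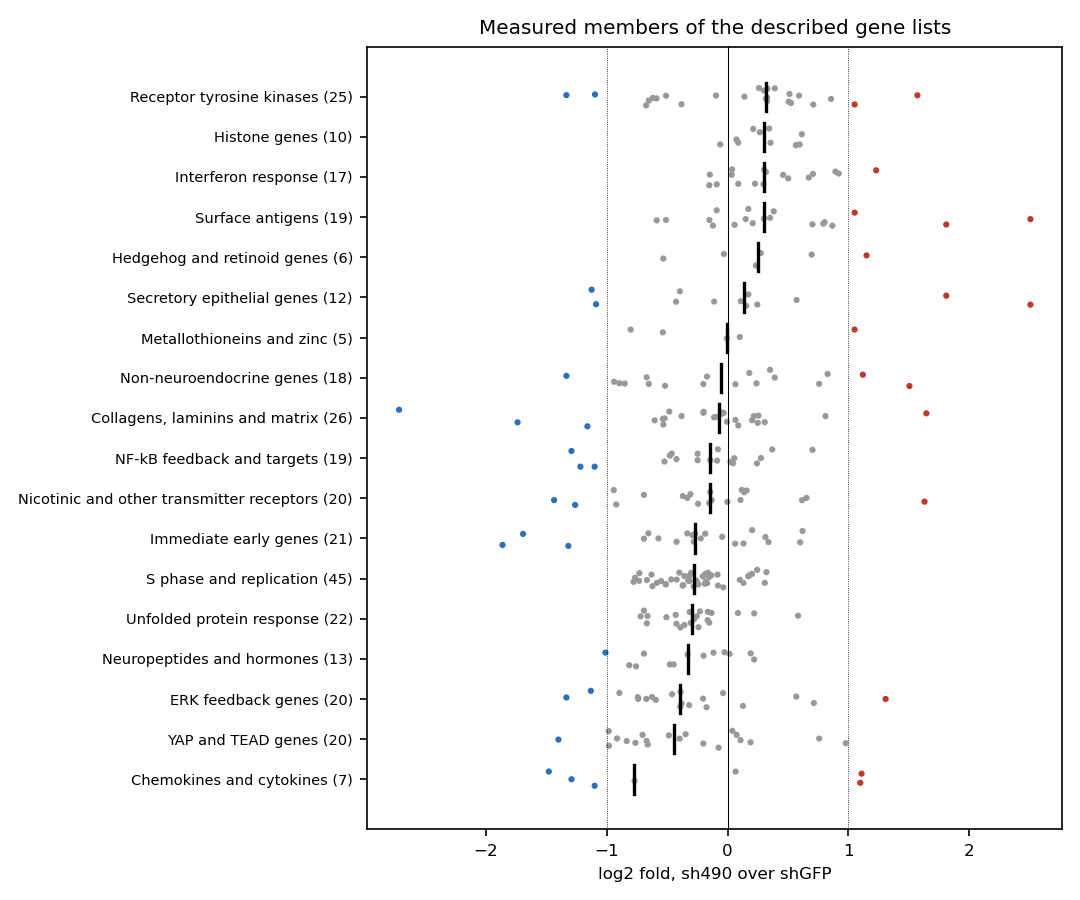
Log2 fold of sh490 over shGFP for every measured member of 18 gene lists, 1 point a gene, with the median as a black bar, the number measured in brackets and dotted lines at 2-fold; called genes are coloured, and the red cell list is left out because its globins run off the scale. Medians run from -0.77 for chemokines and cytokines to 0.32 for receptor tyrosine kinases, and the S phase and unfolded protein response lists hold no called gene.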

How the data were processed

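RNA of NCI-H209 cells was sequenced in 1 library per hairpin; samples were grouped by their titles. The authors deposited, for each library, a table of raw gene counts that had not been normalised. Per the submitters' processing notes, FastQC 0.11.8, STAR 2.6.1c, featureCounts 1.6.0 and the build GRCh38 were used, and per the file headers featureCounts counted exons of GENCODE annotation version 32 with no option for strand or multiple alignments recorded, so reads of both strands were added and reads fitting several genes were left out. Of 60609 listed genes 60295 were matched to a symbol and 58502 to GENCODE version 29, used here for biotypes.

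TMM factors (edgeR 4.0.16, R 4.3.3) over sh490 and shGFP were 1.0077 and 0.9923; values for sh1362 came from factors over all 3 libraries. The filter was a mean CPM of at least 5. Folds are ratios of normalised CPM without a prior count, with exact conditional binomial (Clopper-Pearson) 95% intervals from scipy 1.17.1, tested on simulated counts. A count of 0 allows up to 3 counts, 0.385 CPM in sh490 and 0.612 in shGFP. Alternatives were other scalings (DESeq2 1.42.0 size factors among them), a prior count of 2 and other filters.

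Named genes are the 15 highest and 15 lowest protein-coding genes and the 4 non-coding genes each way, ranked by the interval bound nearest equality, the measured Src family list, and up to 4 members of each of 19 lists, those with the largest share called or the largest absolute median. Some genes that meet this rule are not reported here. The other genes named were chosen after their values were seen. The members and lists were chosen with earlier results of these data known, and 3 lists (ER to Golgi transport, ER translocation and glycosylation, and cytoskeleton) and both motifs were added after values had been seen.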

Additional observations from a re-analysis of the deposited data

How the results depend on the processing

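No paired analysis was possible because there was 1 library per hairpin and the labels carry no replicate numbers; for the same reason no library could be left out. The filter on low values decides how many genes are called: a mean of 1 CPM or more gave 714 higher and 650 lower, 20 CPM or more gave 53 and 61, and no filter gave 1289 and 1954, against 171 and 166. More genes enter at low counts under the looser filters, where counting error is widest. Scaling mattered little. DESeq2 size factors gave 174 and 162, library totals alone 192 and 159, TMM over all 3 libraries 170 and 166, TMM without mitochondrial and globin genes 182 and 174, and a prior count of 2 gave 154 and 158. The YES1 level stayed between 6.89% and 7.00% of shGFP under these alternatives. All 107 named genes stayed within their counting intervals, so no called one changed direction, and 1, SCG2, lost its call, at -0.99 under library totals. The log2 folds of the named genes shifted by at most 0.02 under the scalings and 0.68 with the prior count. Of 61 list medians the largest shift was 0.045 under the scalings and 0.039 with the prior count; 8 changed sign under some alternative, all from main values no farther than 0.10 from 0. Under the filters 16 shifted by 0.1 or more on the log2 scale. With 1 CPM or more the medians became -0.94 for chemokines, 0.46 for interferon genes, 0.12 for cell death genes, 0.066 for non-neuroendocrine genes and -0.18 for matrix genes. With 20 CPM or more they became -0.11 for the Src family, -1.10 for chemokines, -0.40 for MHC class II, 0.28 for p53 targets, -0.27 for zinc genes, -0.45 for neuropeptides, 0.21 for non-neuroendocrine genes, -0.015 for TRP channels, 0.10 for hedgehog and retinoid genes, -5.21 for red cell markers and -0.36 for leukocyte markers; fewer members are measured there. Depth limits the low genes most: shGFP, with 4899006 counts, is the shallower library and the only control.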

Other observations

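Genes under the filter of 5 CPM stayed outside the comparison, but some differed by more than counting error allows. Of 13710 detected genes under the filter, 116 had an interval wholly past 2-fold, 39 higher with sh490 and 77 lower, of which 21 and 43 are protein-coding. The examples below were chosen after their values were seen.

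MB, which encodes the oxygen store myoglobin, had 45 counts in sh490 and 0 in shGFP. Its exact interval starts at 7.25-fold higher, and sh1362 had 41 counts. BATF2, an interferon-induced leucine zipper factor, had 19 counts and 0, with an interval from 2.89-fold higher, and AIM2, a sensor of cytosolic DNA, 16 and 0, from 2.39-fold higher. With sh1362 these had 15 and 4 counts. FGFR3, a receptor tyrosine kinase of the family of FGFR4, had 40 counts and 4, and the xenobiotic enzyme CYP3A5 had 39 and 3, a ratio of 8.05 (2.56 to 40.7).

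On the lower side, ADAM12, a membrane metalloprotease, had 2 counts in sh490 and 26 in shGFP, with 9 in sh1362. LY9, a receptor of the SLAM family, had 0 and 17, and the interval of its log2 fold ends at -2.74, while sh1362 had 18. NOS1, the neuronal nitric oxide synthase, had 4 and 23, and again sh1362 was near the control at 25 counts. C2CD4B, the neighbour of the called gene C2CD4A on chromosome 15, had 12 counts and 34.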
